A study of Homo sapiens with 9 samples.

Results

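Transcripts of 10 genes of insulin and insulin-like growth factor (IGF) signalling were followed in tumours grown from A375, a cultured melanoma line of human origin that carries mutant BRAF. The genes were taken by name from the deposited count table, and all 10 were found among its 57820 gene identifiers. They encode 3 receptor substrates (IRS1, IRS2, IRS4), 3 receptors (INSR, IGF1R, IGF2R) and 4 binding proteins (IGFBP3, IGFBP4, IGFBP5, IGFBP7). They were selected from results of these same libraries, in which IRS4 differs widely. In the authors' deposited table that sets RING mutant tumours beside uninduced RNF4 tumours, IRS4 has a log2 change of -6.846 and an adjusted p of 0.0111. That difference is therefore given as a description, and nothing is read from p-values of IRS4.

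Tumour cells carried a doxycycline (Dox) inducible construct and grew in nude mice, which lack T cells but keep other host cells. One construct encodes RNF4, a ubiquitin ligase for SUMO-modified proteins. The other encodes RNF4 with a substitution in its RING domain that removes catalytic activity. The 3 groups, each of 3 libraries, are RNF4 without Dox (T1, T4, T12), induced RNF4 (T2, T5, T13) and RING mutant with Dox (T3, T6, T14), named by their column numbers. In the groups with Dox it was given in the drinking water from day 3 after injection, tumours were taken at day 30, and each library pools 2 similar tumours. No library received Dox without an RNF4 construct, so in comparisons with uninduced RNF4, Dox and the induced protein cannot be told apart. All libraries of the RING mutant construct had Dox. In comparisons with that group, the line and the mutant protein therefore cannot be told apart. The design text names GFP-expressing tumours as the control, whereas the deposited control libraries are titled RNF4 without Dox. Whether either line is clonal is not given in the sources used here.

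Insulin and the IGF ligands bind the tyrosine kinase receptors INSR and IGF1R, which phosphorylate the insulin receptor substrates. Those adaptors dock PI3-kinase and pass the signal to AKT, mTOR and the FOXO transcription factors. IGF2R binds IGF2 and takes it to the lysosome without a kinase of its own, and the binding proteins carry IGFs outside the cell and set how much reaches the receptors. In melanoma, IGF1R is known as one of the kinases that can sustain growth when BRAF is inhibited. IRS4 is normally made in few adult tissues.

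Libraries held 16416426 to 28934692 counts. RNF4 stood at 33.4 to 52.0 CPM (counts per 1000000 reads on TMM-scaled library sizes) without Dox and at 380 to 454 CPM with RNF4 and Dox. In the libraries labelled RING mutant it was 47.0 CPM in T3, 559 CPM in T6 and 63.5 CPM in T14, so 2 of these 3 show no raised RNF4, and the group is used by its label. The share of counts at ribosomal protein genes was 26.0% for T1, 16.03% for T2 and 6.50% to 9.71% for the remaining 7 libraries. Of the pigment genes, MLANA was at 0.738 to 1.88 CPM in all libraries, while T14 stood apart for PMEL (10.2 CPM against 0.743 to 2.04 CPM elsewhere), TYRP1 (8.13 against 0.205 to 0.909), DCT (6.93 against 0.0684 to 0.593) and TYR (1.48 against 0 to 0.165). SOX10, a neural crest factor, was at 39.0 to 80.9 CPM and AXL, a marker of undifferentiated melanoma, at 436 to 935 CPM. The submitters' processing notes name the human genome build GRCh38 alone, so reads of mouse host cells may be counted at human genes. In tumour pieces, fewer cells of a type and less RNA per cell cannot be told apart.

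IRS4 carries the widest differences among the 10 genes, and its promoter is shown with that of IRS2, the substrate with the highest level. IRS4 (ENSG00000133124.10) is a gene of 1 exon in GENCODE 29, on the minus strand of chromosome X at 108732482 to 108736409 (GRCh38). RefSeq (GRCh38.p14) gives it 2 start sites, 186 bases apart, and so 2 windows of 300 bases (250 before and 50 after the start) that share 114 bases. Capitals mark E-boxes (CACGTG), GC boxes (GGGCGG) and the core of an insulin response element (CAAAACA), each on either strand. The core of an insulin response element is a forkhead-type sequence known from the promoters of insulin-regulated genes.
IRS4 upstream start, chrX:108736514-108736813, minus strand: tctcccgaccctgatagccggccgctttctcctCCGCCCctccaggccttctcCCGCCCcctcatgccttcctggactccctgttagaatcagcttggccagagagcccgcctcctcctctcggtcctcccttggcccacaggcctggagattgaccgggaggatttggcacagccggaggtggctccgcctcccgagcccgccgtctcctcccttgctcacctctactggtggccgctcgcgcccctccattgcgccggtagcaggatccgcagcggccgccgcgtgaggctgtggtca
IRS4 downstream start, chrX:108736328-108736627, minus strand: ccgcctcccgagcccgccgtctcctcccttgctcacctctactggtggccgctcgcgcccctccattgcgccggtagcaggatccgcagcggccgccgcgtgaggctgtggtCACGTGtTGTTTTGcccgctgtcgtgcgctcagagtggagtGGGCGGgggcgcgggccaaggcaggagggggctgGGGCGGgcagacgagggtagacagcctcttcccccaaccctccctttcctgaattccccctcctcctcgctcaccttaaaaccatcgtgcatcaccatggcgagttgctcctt
IRS2, chr13:109786534-109786833, minus strand: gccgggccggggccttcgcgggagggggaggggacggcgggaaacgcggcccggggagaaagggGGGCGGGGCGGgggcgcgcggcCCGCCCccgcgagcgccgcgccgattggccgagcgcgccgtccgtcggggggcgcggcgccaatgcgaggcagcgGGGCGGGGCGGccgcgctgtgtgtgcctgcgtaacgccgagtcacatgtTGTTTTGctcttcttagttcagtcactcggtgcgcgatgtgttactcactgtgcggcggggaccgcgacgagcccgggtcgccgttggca

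In the downstream IRS4 window an E-box at position -138 is followed by the insulin response core at -131, counting bases before the start as negative. The IRS2 window holds the same core at -40, again read as TGTTTTG on the gene's strand. Of 35116 RefSeq windows of that length, 4.92% hold CAAAACA, 7.26% hold CACGTG and 45.0% hold GGGCGG on either strand. The 2 windows with CAAAACA among the 9 genes with a RefSeq promoter are those of IRS2 and of the downstream IRS4 start. Neither CAAAACA nor CACGTG overlapped another match in these windows, whereas 2 pairs of GC boxes overlapped in IRS2. The TATA box TATAAA stood in 11.5% of windows and, among the 9 genes, in IGFBP4 alone. Besides IRS4, CACGTG stood in IGF2R and IRS1, and GGGCGG stood in all of the 9 genes but IGFBP5. GC content was 68.3% and 67.3% in the IRS4 windows and 75.7% in that of IRS2, against a median of 58.7%. These matches are letters in a window and were not measured as binding sites.

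IRS4, an adaptor that docks PI3-kinase, was present in 5 of the 6 libraries with the RNF4 construct and nearly absent from those labelled RING mutant. Without Dox it was at 4.10 CPM in T1, 53.9 CPM in T4 and 7.27 CPM in T12. With RNF4 and Dox it was at 21.3 CPM in T2, 11.4 CPM in T5 and 0.0827 CPM in T13. In the libraries labelled RING mutant it was at 0 in T3, 0.525 CPM in T6 and 0 in T14. T4 is the highest library by a wide margin, T13 sits with the libraries labelled RING mutant, and the 2 RNF4 groups overlap. The values rest on 60, 1679 and 185 counts without Dox, 446, 255 and 2 counts with RNF4 and Dox, and 0, 12 and 0 in T3, T6 and T14. A count of 0 allows up to 0.181 CPM in T3 and 0.183 CPM in T14 (3 counts of the total, counting error only).

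Summed over libraries, IRS4 had 1924 counts without Dox and 12 in the libraries labelled RING mutant, a ratio of 119.9 per total count. With RNF4 and Dox it had 703 counts, a ratio of 47.2 to the RING mutant label. T4 gave 1679 of the 1924 counts, so these sums rest largely on 1 library. The fitted log2 differences were -6.75 ± 1.88 (SE) for the RING mutant label minus RNF4 without Dox and 5.75 ± 1.83 for RNF4 with Dox minus the RING mutant label. Without T4 the first was -4.82. RNF4 with Dox minus RNF4 without Dox was -0.998 ± 1.35, 0.94 without T4 and -4.13 with limma voom, so neither its direction nor its size is fixed by these libraries. Without T6, the RING mutant label has 0 IRS4 counts and a fitted value is no bound. Each pair of comparisons shares a group of libraries, so their values are not independent of each other. Neighbouring columns of the RNF4 groups moved in unlike directions, with T2 at 5.20 times T1, T5 at 0.212 times T4 and T13 at 0.0114 times T12.

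RNF4 and IRS4 counts are set side by side here, and their relation was not tested. The RNF4 count does not tell the active form from the RING mutant. T13 had the highest RNF4 of its group (454 CPM) and almost no IRS4. T6, with 559 CPM of RNF4, and T3 and T14, with 47.0 and 63.5 CPM, were all at or under 0.525 CPM of IRS4.

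**Figure D1:**
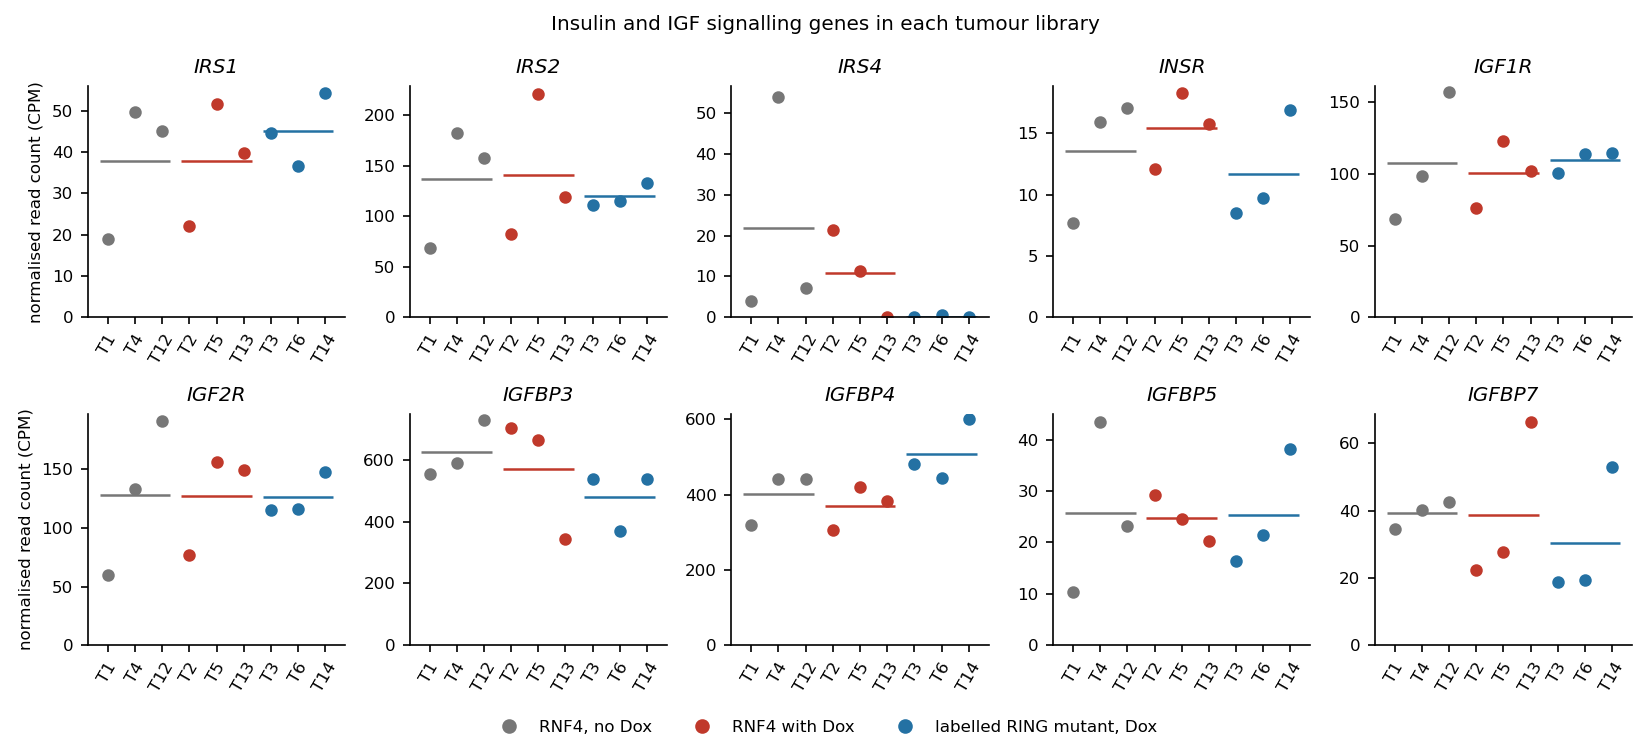
Normalised read count (CPM, linear axis from 0) of each of the 10 genes in the 9 libraries, with 1 point per library and a horizontal line at each group's mean of 3. IRS4 lies at 0 to 0.525 CPM in T3, T6 and T14 and peaks at 53.9 CPM in T4, and several other genes are lowest in T1 and T2.

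The RNA counted next to IRS4 had the same pattern. AL035425.3 (ENSG00000261409.1, chromosome X, 108719949 to 108724944, minus strand) is a non-coding gene model on the strand of IRS4, 7537 bases beyond its 3' end in GENCODE 29. RefSeq draws IRS4 from 108719946 to 108736563, so AL035425.3 lies wholly inside the RefSeq IRS4 gene. AL035425.3 was at 16.6, 53.4 and 12.7 CPM in T1, T4 and T12, at 55.8, 15.4 and 0.620 CPM for T2, T5 and T13, and at 0.0593, 0.437 and 0.0568 CPM in T3, T6 and T14. It was thus low in the same 4 libraries as IRS4, and its 2230 counts without Dox against 12 in the libraries labelled RING mutant give a ratio of 139 per total count. T2 exceeded T4 for AL035425.3, whereas IRS4 was higher in T4. Whether reads of AL035425.3 come from a longer IRS4 transcript was not tested.

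Gene models overlap at this locus. AL035425.2, on the same strand, shares 109 exonic bases with IRS4 and 454 with AL035425.3 and had 0 counts in every library. IRS4-AS1 runs on the opposite strand and shares 356 exonic bases with the 5' end of IRS4. It had 60 counts without Dox, 31 with RNF4 and Dox and 1 in the libraries labelled RING mutant. The kit keeps strand, but whether counting used it is not given in the sources used here, so reads of IRS4-AS1 and IRS4 over the shared bases may not be separated.

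Of 26 gene rows with a start within 1 Mb of IRS4, 11 had enough counts for the fit and 7 had no counts. MID2, a ubiquitin ligase of microtubules 911 kb toward lower coordinates, followed IRS4 in part. It was at 1.78, 7.22 and 1.69 CPM in T1, T4 and T12, 5.79, 2.78 and 1.08 CPM for T2, T5 and T13, and 0.770, 1.18 and 1.02 CPM in T3, T6 and T14. TSC22D3, the glucocorticoid-induced leucine zipper, was also highest in T2 (64.2 CPM) and T4 (54.8 CPM) and ranged from 8.53 to 28.3 CPM elsewhere. The 2 collagen IV genes nearest to the 3' side had 0.533 to 2.57 CPM (COL4A6) and 1.42 to 7.22 CPM (COL4A5), both highest in T4 and lowest in T3.

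Other neighbours did not share the near absence from the libraries labelled RING mutant. ACSL4, which activates arachidonic acid, stayed between 74.3 and 117 CPM with its highest value in T3. PSMD10, a proteasome assembly chaperone, ranged from 45.4 to 119.9 CPM and the autophagy protease ATG4A from 7.65 to 21.2 CPM, each highest in T1 and T2. NXT2, an mRNA export factor, ranged from 10.7 to 31.7 CPM, also highest in T2 and T1. KCNE5, a potassium channel subunit, stood at 0.314 to 0.868 CPM.

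Across the 9 libraries the genes most like IRS4 by Pearson correlation of log2 CPM were AMOT (r = 0.98), MAPK8IP2 (0.98), AL035425.3 (0.97), EMILIN3 (0.97) and STON2 (0.97). Spearman's rho for these was 0.996, 0.946, 0.912, 0.954 and 0.954. The libraries fall into a low cluster of 4 and a higher cluster of 5, so these values describe that split above all. AMOT, an angiomotin that binds Hippo pathway proteins, starts 4.10 Mb from IRS4. It was at 14.8, 103 and 16.2 CPM in T1, T4 and T12, at 48.3, 21.8 and 3.02 CPM for T2, T5 and T13, and at 1.13, 4.20 and 2.22 CPM in T3, T6 and T14. RADX, a single-stranded DNA binding protein of replication forks 2.12 Mb to the other side, was at 36.5 CPM in T2, 25.6 CPM in T4 and 0.284 to 0.700 CPM in T13, T3, T6 and T14. MAPK8IP2, a scaffold of JNK signalling on chromosome 22, was at 7.96 CPM in T4 and 0.0593 to 0.350 CPM in those 4 libraries. Of the 50 genes most like IRS4, 9 (18%) lie on chromosome X, against 3.14% of all genes fitted. For the other members that number was 0 to 4 of 50.

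**Figure D2:**
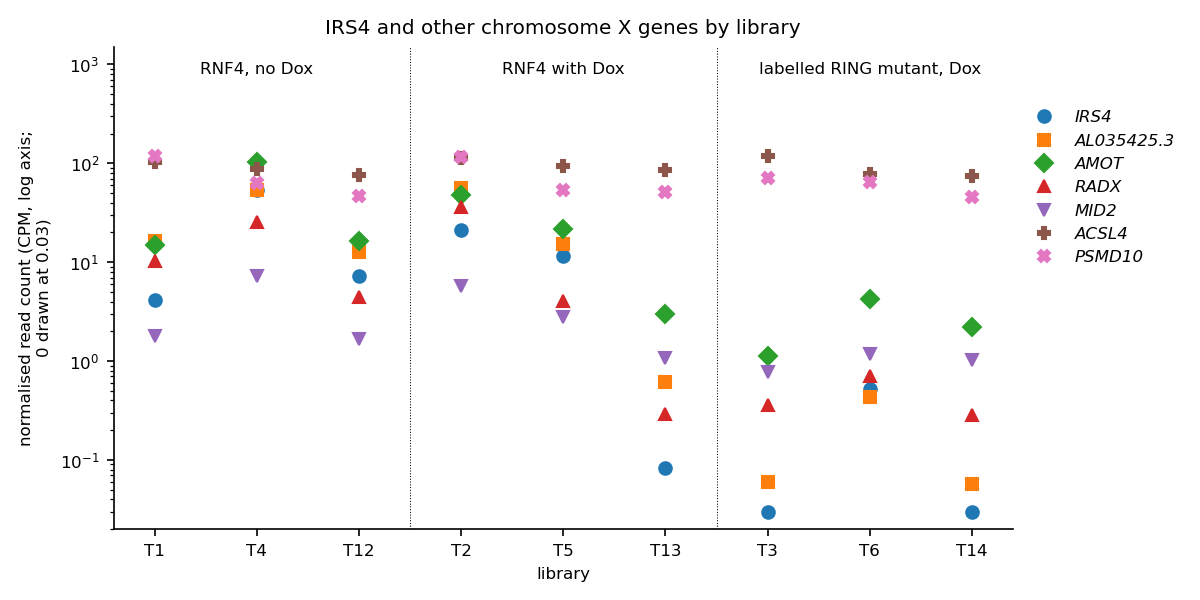
Normalised read count (CPM, log axis, 0 drawn at 0.03) of IRS4 and 6 other chromosome X genes in each library, with dotted lines between the groups. IRS4, AL035425.3, AMOT and RADX are lowest in T13, T3, T6 and T14, whereas ACSL4 and PSMD10 stay at 45.4 CPM or more in all 9 libraries.

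IRS1 and IRS2, the main substrates of the insulin and IGF1 receptors in most cells, were present in every library, with no clear difference between groups. IRS2 was at 68.7, 183 and 158 CPM without Dox (T1, T4, T12), at 82.8, 221 and 119 CPM with RNF4 induced (T2, T5, T13) and at 111, 115 and 133 CPM in T3, T6 and T14. IRS1 was at 18.9, 49.8 and 45.1 CPM, at 22.1, 51.6 and 39.8 CPM and at 44.6, 36.6 and 54.3 CPM in the same order. All groups overlap for both genes, and T1 and T2 are the lowest libraries for each. The group means of IRS2 were 137 ± 60.1 (SD, n = 3), 141 ± 71.9 and 119.9 ± 11.8 CPM, and those of IRS1 37.9 ± 16.6, 37.8 ± 14.8 and 45.1 ± 8.86 CPM. Fitted log2 differences of RNF4 with Dox minus RNF4 without Dox were 0.05 ± 0.41 (SE) for IRS2 and -0.01 ± 0.39 for IRS1.

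Levels of different genes were compared per kilobase of GENCODE 29 exon. IRS2 gave 16.3 CPM per kb on average over 9 libraries, IRS1 4.05 and IRS4 2.79. As a share of the sum of the 3 substrates, IRS4 made up 33.3% in T4, 30.5% in T2, 9.18% in T1, 8.24% in T5 and 7.17% in T12. It made up 0.113% in T13, 0.743% in T6 and 0 in T3 and T14. IRS2 was the largest of the 3 in every library, at 54.6% to 78.8%.

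The receptors overlapped between all groups, and 3 libraries per group leave moderate differences unresolved. IGF1R, the IGF1 receptor tyrosine kinase, was at 68.3, 98.3 and 157 CPM in T1, T4 and T12, at 76.1, 123 and 102 CPM for T2, T5 and T13 and at 101, 114 and 114 CPM in T3, T6 and T14. INSR, the insulin receptor, was at 7.66, 15.9 and 17.1 CPM, at 12.1, 18.3 and 15.8 CPM and at 8.47, 9.71 and 16.9 CPM in the same order. IGF2R, the scavenger of IGF2 and carrier of lysosomal enzymes, was at 59.7, 134 and 191 CPM, at 77.2, 156 and 149 CPM and at 115, 116 and 148 CPM. T1 was the lowest library for all 3 receptors, T2 was next for IGF1R and IGF2R, and no receptor separated any pair of groups. Per kilobase, IGF1R stood at 4.64 to 8.93 times INSR in every library, with the highest ratios in T3 (8.93) and T6 (8.81) and 5.08 in T14.

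For RNF4 with Dox minus RNF4 without Dox the fitted log2 differences (± SE) were -0.11 ± 0.30 for IGF1R, 0.18 ± 0.36 for INSR and -0.01 ± 0.40 for IGF2R. The largest was that of INSR for RNF4 with Dox minus the RING mutant label, at 0.40 ± 0.36.

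Most of these genes were lower where the share of ribosomal protein counts was high. The Pearson correlation of log2 values over 9 libraries was -0.96 for IRS1 and -0.95 for IGF2R. It was 0.20 for IRS4, of which T2 had the second highest level (21.3 CPM), 0.09 for IGFBP3 and -0.34 for IGFBP7. T1 (26.0%) and T2 (16.03%) gave the 2 lowest values of IRS1, IRS2, IGF1R, IGF2R and IGFBP4, and T1 gave the lowest of INSR and IGFBP5. Because each RNF4 group holds 1 of these libraries, their within-group SDs are widened, and the libraries labelled RING mutant (6.74% to 9.71%) hold none. Without T1 and T2, IRS1 ranged from 36.6 to 54.3 CPM, IRS2 from 111 to 221 CPM, IGF1R from 98.3 to 157 CPM and IGF2R from 115 to 191 CPM. The correlation of IRS1 with IGF2R was 0.90 over 9 libraries and 0.34 over the 7 without T1 and T2, and that of IRS1 with IGF1R went from 0.79 to 0.08. The part of the ribosomal protein share in these values was not tested.

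**Figure D3:**
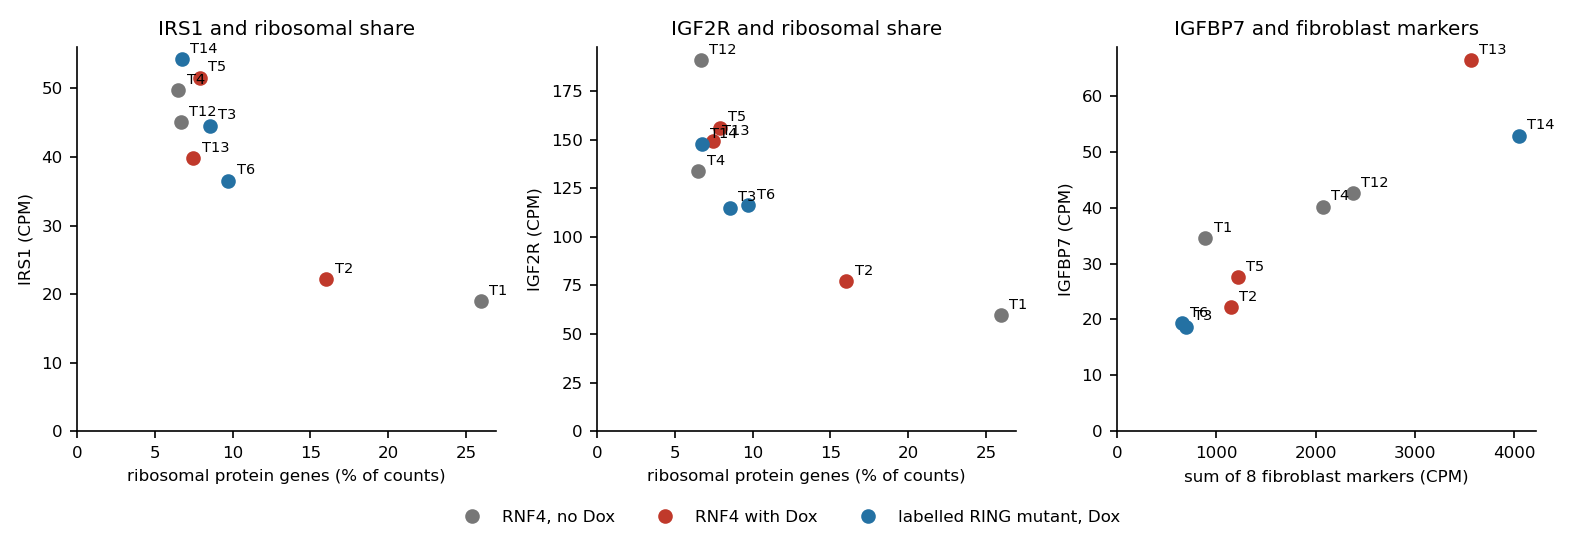
IRS1 and IGF2R (CPM) against the percent of counts at ribosomal protein genes, and IGFBP7 (CPM) against the summed CPM of 8 fibroblast markers, 1 point per library. T1 and T2 stand apart at 26.0% and 16.03% with the lowest IRS1 and IGF2R, and T13 and T14 have the highest IGFBP7 and the highest marker sums.

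Per length, 2 binding proteins had the highest levels of the 10, with IGFBP4 at 194 CPM per kb and IGFBP3 at 122, ahead of IGFBP7 at 18.7 and IGFBP5 at 3.92. The ranges over libraries of IGFBP4 (139 to 273 CPM per kb) and IGFBP3 (75.3 to 160 CPM per kb) overlapped, as did those of IGFBP7 (9.70 to 34.4) and IRS2 (8.44 to 27.2). IGF1R (7.60 on average) and IGF2R (7.14) did not differ beyond their ranges, nor did IRS1 (4.05) and IGFBP5 (3.92), and INSR (1.295) had the lowest mean over 9 libraries. Under the RING mutant label IRS4 was lower than INSR, at a mean of 0.0445 against 1.12 CPM per kb.

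IGFBP4, which holds IGFs away from their receptors until a protease cleaves it, was highest under the RING mutant label. It was at 318, 441 and 443 CPM in T1, T4 and T12, at 305, 421 and 384 CPM for T2, T5 and T13 and at 480, 443 and 600.0 CPM in T3, T6 and T14. The libraries labelled RING mutant lie above all 3 with RNF4 and Dox, also on RLE-scaled and unscaled library sizes. Against RNF4 without Dox, T6 (443.2 CPM) and T12 (442.7 CPM) nearly touch, and the groups overlap on RLE-scaled or unscaled sizes. The group means were 401 ± 71.7 (SD, n = 3), 370.0 ± 59.4 and 508 ± 82.0 CPM. The fitted log2 difference of RNF4 with Dox minus the RING mutant label was -0.46 ± 0.25 (SE), and -0.26 with limma voom. T2 and T1, which have the highest ribosomal protein shares, were the lowest libraries, and both belong to RNF4 groups.

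IGFBP3, the main carrier of IGFs in serum, went the other way. It was at 555, 590.0 and 729 CPM without Dox (T1, T4, T12), at 703, 663 and 344 CPM with RNF4 induced (T2, T5, T13) and at 536, 369 and 536 CPM in T3, T6 and T14. T13 was the lowest of the 9 libraries, below T6. The highest library labelled RING mutant (T3, 536.4 CPM) lay under the lowest without Dox (T1, 554.7 CPM), and on RLE-scaled or unscaled sizes these groups overlapped. The fitted log2 difference of the RING mutant label minus RNF4 without Dox was -0.38 ± 0.32 (SE).

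IGFBP5, a matrix-bound carrier, was at 10.3, 43.4 and 23.2 CPM in T1, T4 and T12, at 29.2, 24.6 and 20.2 CPM for T2, T5 and T13 and at 16.4, 21.4 and 38.3 CPM in T3, T6 and T14. Its 3 group means lay between 24.7 and 25.6 CPM, while single libraries spanned a 4.20-fold range.

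IGFBP7, a low-affinity carrier known from stroma and vessel walls, was highest in T13 (66.4 CPM) and T14 (52.9 CPM). It was at 34.6, 40.2 and 42.7 CPM in T1, T4 and T12, at 22.2 and 27.6 CPM in T2 and T5 and at 18.7 and 19.4 CPM in T3 and T6. Libraries of 1 group thus stood at both ends of its range. The summed CPM of the 8 fibroblast markers had the same 4 highest libraries, at 4052 in T14, 3565 in T13, 2376 in T12 and 2071 in T4. It was lowest in T3 (693) and T6 (653), as was IGFBP7, and spanned 889 to 2376 without Dox, 1142 to 3565 with RNF4 and Dox and 653 to 4052 under the RING mutant label. Of these markers all 8 exceeded 1 CPM in some library and none was at 0. Most of the sum came from collagens, with COL1A1 at 2042 CPM, COL3A1 at 1087 CPM and COL1A2 at 817 CPM in T14. Taken singly, COL1A1 and COL1A2 had these 4 highest libraries and the other markers did not. DCN, for example, was at 1.51 CPM in T4 and 4.74 CPM in T2. Of the endothelial markers, CDH5, KDR, TEK, VWF and CLDN5 each had T4, T12, T13 and T14 as highest libraries, and TIE1 and EMCN did not. KDR was at 5.78, 9.67, 10.21 and 6.88 CPM in these libraries, and next at 3.09 CPM in T5. CDH5 and KDR were lowest in T1 and T2, unlike IGFBP7. The part of fibroblast or endothelial markers in the IGFBP7 values was not tested, nor was whether the reads are of mouse or human origin. Without T13 the fitted log2 difference of RNF4 with Dox minus RNF4 without Dox moved from -0.02 to -0.65, and without T14 that of the RING mutant label minus RNF4 without Dox moved from -0.37 to -1.03.

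**Figure D4:**
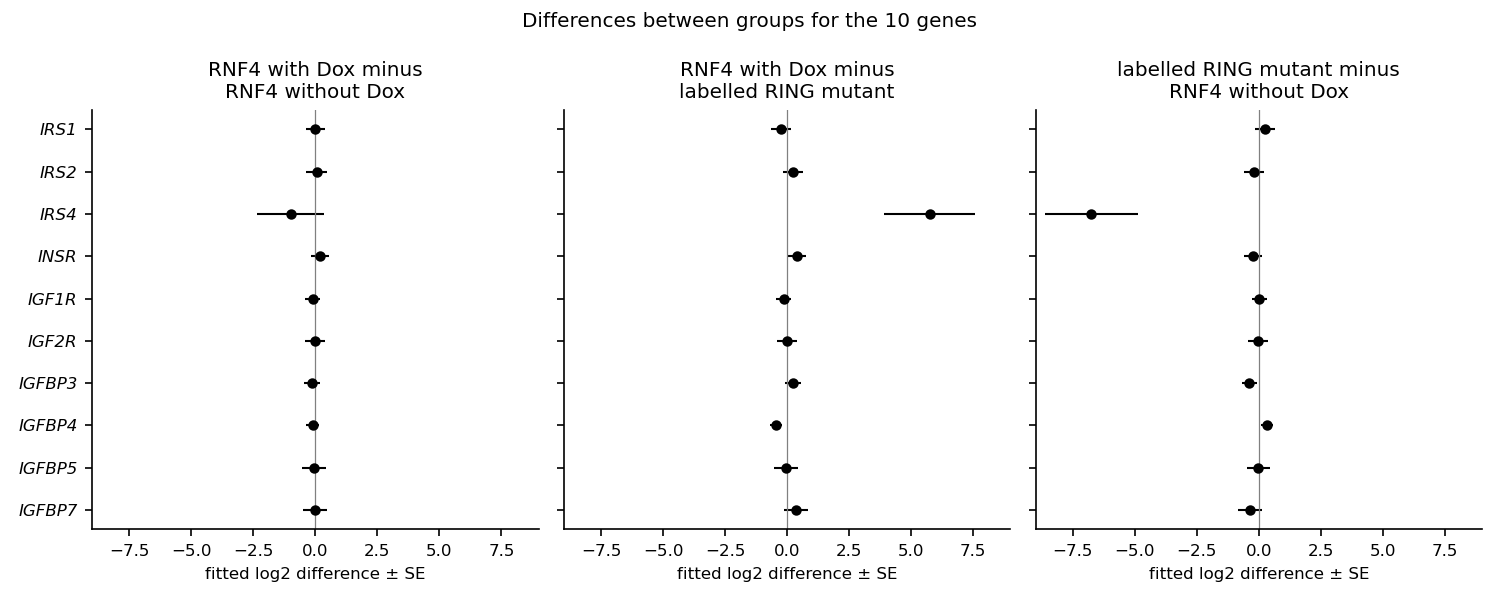
Fitted log2 differences with SE of the 10 genes in the 3 comparisons (edgeR, 9 libraries). IRS4 stands at -0.998, 5.75 and -6.75, and the other 9 genes lie between -0.46 and 0.40.

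No member passed an adjusted p of 0.05 in edgeR's quasi-likelihood test, nor did any of the 18618 genes fitted (0% in each comparison). That test also did not call RNF4 itself for RNF4 with Dox minus RNF4 without Dox. Its log2 difference was 3.28 ± 0.84 (SE), with an unadjusted p of 0.00304 and an adjusted p of 0.999977. The authors' deposited adjusted p for RNF4 there is 0.0132. A lack of calls in this test therefore does not show a lack of difference. For RNF4 with Dox minus RNF4 without Dox, 0 of 10 members had an unadjusted p under 0.05, against 0.596% of all genes. For RNF4 with Dox minus the RING mutant label it was 1 of 10, IRS4, against 1.35%, and for the RING mutant label minus RNF4 without Dox again IRS4, against 1.75%. DESeq2's Wald test called 0 members and, of all genes, 3 (0.0162%), 1 (0.00541%) and 4 (0.0216%) in the 3 comparisons. edgeR's likelihood ratio test called 0 members and 1 (0.00537%), 3 (0.0161%) and 5 (0.0269%) genes, and limma voom called 0 in each. For any difference among the 3 groups, the quasi-likelihood test gave an unadjusted p under 0.05 for 1 member, again IRS4, and for 1.1% of all genes. IRS4 was selected on its difference in these libraries, so nothing is read from any of its 3 calls at an unadjusted p. The authors' deposited table for the RING mutant label against RNF4 without Dox has an adjusted p under 0.05 for 1 member, IRS4, and for 0.119% of its genes. In the authors' deposited tables for the other 2 comparisons it is 0 members, beside 0.0187% of genes for induced against uninduced RNF4 and 0.05% for induced RNF4 against the RING mutant label. Groups did not overlap for 0, 1 and 3 members in these comparisons, against 2.32%, 4.98% and 3.78% of all genes, with IGFBP4 in the second and IRS4, IGFBP3 and IGFBP4 in the third. As given above, those of IGFBP3 and IGFBP4 in the third depend on the scaling. The median log2 difference of the 10 was -0.04, 0.12 and -0.11, beside -0.03, 0.03 and -0.04 over all genes.

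The ligands themselves were scarce. INS had 0 counts in every library, IGF1 stood at 0.178 to 2.77 CPM with its highest values in T13 and T14 (2.77 and 2.61 CPM), and IGF2 at 0.227 to 1.42 CPM. T13 and T14 also had the highest marker sums of fibroblasts (3565 and 4052 CPM), skeletal muscle (208 and 761 CPM) and adipocytes (5.54 and 4.32 CPM). The part of any of these in the IGF1 values was not tested.

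A list of 72 further genes of the pathway, 66 of them fitted, was described as a whole. None passed the adjusted test in any comparison. At an unadjusted p under 0.05 there were 2, both lower, for RNF4 with Dox minus RNF4 without Dox, 0 for RNF4 with Dox minus the RING mutant label, and 3, all lower, for the RING mutant label minus RNF4 without Dox. Of all genes fitted, 0.596%, 1.35% and 1.75% had such a p in these comparisons. The medians of the list were 0.01, -0.03 and 0.05, beside -0.03, 0.03 and -0.04 over all genes. By role, 11 of 13 genes of the PI3-kinase arm and 10 of 13 feedback genes and phosphatases lay above 0 for the RING mutant label minus RNF4 without Dox, with medians of 0.13 and 0.07. For RNF4 with Dox minus the RING mutant label it was 3 and 4 of 13. Of all genes, 44.35% lay above 0 for RNF4 with Dox minus RNF4 without Dox, 55.75% for RNF4 with Dox minus the RING mutant label and 43.24% for the RING mutant label minus RNF4 without Dox. All 4 FOXO factors lay below 0 in the last of these (median -0.23), and 4 of 11 mTOR genes lay above 0 (median -0.01). In RNF4 with Dox minus RNF4 without Dox, 2 of 10 adaptors lay above 0 (median -0.10), 8 of 13 PI3-kinase genes (0.02) and 7 of 11 mTOR genes (0.01).

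PAPPA, the metalloproteinase that cleaves IGFBP4 and frees IGFs, was higher in 2 libraries without Dox than in any other. It was at 12.2, 9.85 and 2.55 CPM in T1, T4 and T12, at 1.34, 2.91 and 1.199 CPM for T2, T5 and T13 and at 1.19, 2.27 and 2.56 CPM in T3, T6 and T14. T12 overlaps both other groups. Its log2 difference was -2.17 ± 0.61 (SE) for RNF4 with Dox minus RNF4 without Dox and -2.02 ± 0.60 for the RING mutant label minus RNF4 without Dox. GRB10, an adaptor that restrains INSR and IGF1R, had the same 2 high libraries. It was at 30.7, 28.9 and 7.82 CPM, at 13.5, 6.85 and 4.26 CPM and at 3.85, 6.25 and 6.53 CPM in the same order, with log2 differences of -1.45 ± 0.55 and -2.01 ± 0.56. Under the RING mutant label all 3 GRB10 values lie under those without Dox, beside 3.78% of all genes whose groups do not overlap in this comparison. PAPPA and GRB10 were named for their small unadjusted p in these libraries, so their differences are descriptions.

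HTRA1, a secreted serine protease that can cleave IGF binding proteins, was at 48.6, 24.5 and 40.8 CPM in T1, T4 and T12 and at 18.1, 22.5 and 23.4 CPM in T3, T6 and T14. Its log2 difference was -0.83 ± 0.26 (SE) for the RING mutant label minus RNF4 without Dox, -0.38 ± 0.26 for RNF4 with Dox minus RNF4 without Dox and 0.45 ± 0.26 for RNF4 with Dox minus the RING mutant label. GRB14, a second inhibitory adaptor, had 1.19 ± 0.66 in the last of these and -1.35 ± 0.66 for the RING mutant label minus RNF4 without Dox, at 0.356 to 3.83 CPM. The PAPPA inhibitor STC2 had 0.71 ± 0.40 and the adaptor SH2B3 -0.40 ± 0.23 for RNF4 with Dox minus the RING mutant label. IGF1 had 1.81 ± 0.90 for RNF4 with Dox minus RNF4 without Dox.

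Of 14 listed targets of the FOXO factors, which insulin signalling keeps out of the nucleus, 13 were fitted and 0 passed the adjusted test. Their medians were 0.04, 0.12 and -0.15 in the 3 comparisons, with 8, 11 and 3 of 13 above 0, beside 44.35%, 55.75% and 43.24% of all genes. SESN3, a sestrin that restrains mTOR, had -1.40 for the RING mutant label minus RNF4 without Dox and was the 1 target with an unadjusted p under 0.05, beside 1.75% of all genes, picked out after its value was seen.

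For the other members the most similar genes over 9 libraries were TNRC6B, GBF1 and TNS3 for IRS1 (r = 0.99 each), AFAP1 (0.99), DOCK6 (0.98) and MTR (0.97) for IRS2, and SRRM1 (0.97), CENPJ (0.96) and CERS1 (0.96) for INSR. They were PTPRG (0.98), DOCK5 (0.96) and KIAA0319L (0.96) for IGF1R and CUL7 (0.99), PLXNB2 (0.99) and ASXL1 (0.98) for IGF2R. Without T1 and T2 those of IRS1 were 0.94, 0.92 and 0.90, while AFAP1 kept 0.995 with IRS2 and MTR 0.97. Among binding proteins they were GPR107 (0.95), DCAF16 (0.95) and ERC2 (0.88) for IGFBP3, ENTREP2 (0.97), PIK3AP1 (0.96) and TMEM127 (0.95) for IGFBP4, and CCDC18 (0.94) and DMD (0.94) for IGFBP5. IGFBP7 was most like a gene model without a symbol, the pseudogene PLA2G12AP1 (0.97) and THBS4 (0.96), a matrix glycoprotein. These likenesses describe 9 libraries that were sequenced as 1 pool, and no test was made.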

How the data were processed

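Poly(A) RNA of 9 tumour pools was sequenced from strand-specific libraries (800 ng of RNA, 50-base single reads), per the labels' protocols. The authors deposited raw counts per gene, identical in all 3 tables. TopHat2 2.0.13, HTSeq 0.6.0, DESeq2 1.10.1 and GRCh38 are named in the submitters' processing notes, without their roles; the annotation is not given in the sources used here. The authors' log2 fold changes and adjusted p-values are quoted from the deposited tables, which also hold 9 columns per table of normalised values that were not used. Titles and columns share a group code but no library number, so columns were assigned to groups and not to single samples.

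Counts were fitted with edgeR 4.0.16 in R 4.3.3: filterByExpr (18618 of 57820 genes), TMM factors, 1 mean per group, quasi-likelihood F-tests, Benjamini-Hochberg adjustment. The method was tested on simulated data in which all genes had the same spread setting and no library stood apart. That test does not measure its power in these libraries. SE is the absolute log2 difference over the square root of F. Alternatives used DESeq2 1.42.0, limma 3.58.1, other scalings and filters, and fits without single libraries. Correlations use log2 CPM with a prior count of 2. Symbols were matched by gene identifier without version, and coordinates and exonic lengths come from GENCODE 29 (52338 identifiers found). Promoter windows are RefSeq's for GRCh38.p14.

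The 10 members, the gene lists and the naming rule were chosen with earlier results of these data known. The rule names all members, the 4 genes of the pathway list with the smallest unadjusted p in each comparison, the 3 genes most correlated with each member (5 for IRS4), genes within 1 Mb of IRS4, and AMOT, RADX and AL035425.3. One gene that the rule names is not reported here. PECAM1, MYLPF and TXNIP of the lists were not matched and not analysed here. Summed markers of the lists not described elsewhere ranged over libraries from 76.9 to 197 CPM for endothelium. For pericytes and smooth muscle the range was 232 to 458 CPM. TIE1 alone gave 66.4 to 159 CPM of the former and CSPG4 146 to 394 CPM of the latter, so each sum is largely 1 gene. Leukocyte markers ranged from 99.0 to 192 CPM, skeletal muscle markers from 14.1 to 761 CPM (highest in T14). Keratinocyte markers ranged from 60.0 to 522 CPM (highest in T13). Adipocyte markers ranged from 0.193 to 5.54 CPM, and ADIPOQ was at 0 throughout.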

Additional observations from a re-analysis of the deposited data

How the results depend on the processing

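The 0 genes called in each comparison by edgeR's quasi-likelihood test stayed 0 with RLE factors, with a filter of 1 CPM in 3 libraries, with limma voom, with the 6 libraries of each comparison alone and with neighbouring columns (T1 with T2 and T3, and so on) as a block. Without a low-count filter 3 genes were called for RNF4 with Dox minus RNF4 without Dox, 38 for RNF4 with Dox minus the RING mutant label, 109 for the RING mutant label minus RNF4 without Dox and 87 for any difference, IRS4 being the 1 member among them in all but the first. DESeq2 called 3, 1 and 4 genes in the 3 comparisons. The likelihood ratio test called 1, 3 and 5, and 5 for any difference, with 0 members by either tool. Leaving out each library in turn gave 0 to 1 genes for RNF4 with Dox minus RNF4 without Dox and for any difference, the 1 arising without T6, and 0 in the other comparisons. Without T1 and T2, chosen after seeing the data, 1 gene was called for the RING mutant label minus RNF4 without Dox. Of 540 refitted log2 differences of the 10 members, 532 moved by less than the SD between libraries of a group and 63 had the other sign. Leaving out 1 of 3 libraries can hardly move a difference by that SD, so the 532 are no measure of stability. The differences of IRS4 moved furthest. RNF4 with Dox minus the RING mutant label was 1.58 with limma voom and 10.89 without T6. In that last fit the RING mutant label has 0 counts and the fitted value is no bound. The cause was not tested. No paired analysis was possible because the deposited columns carry no replicate number of the titles. The block of neighbouring columns above rests on column numbers, not on the labels. Deviations from group means correlated at 0.67 for T1 with T2, 0.48 for T4 with T5, 0.44 for T12 with T13, 0.57 for T13 with T14 and 0.40 for T12 with T14, and at 0.00 to 0.25 for the other 4 pairs. Depth limits IRS4 in T3, T6, T13 and T14, where 0 to 12 counts were seen.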
